A study of Homo sapiens with 4 samples.

Results

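The regions described here make up the baseline enhancer landscape of control Kasumi-1 cells, as marked by acetylation of histone H3 at lysine 27 (H3K27ac). They are all rows on chromosomes 1 to 22 and X of the 2 deposited region tables assigned to the control guide. Together these tables hold 20335 regions, of 45672 in all 4 tables of the series on those chromosomes. Kasumi-1 is an established human acute myeloid leukaemia line. It carries a translocation, t(8;21), that joins RUNX1 to RUNX1T1. The control samples carried a non-targeting guide (sgNT, 2 samples, genotype labelled WT), in a study that used CRISPR/Cas9 to knock out SETD8 in the other 2 samples. CUT&Tag uses an antibody to bring a transposase to the marked histone, where it cuts and tags the DNA, and was run on 100000 cells per library. All the material is 1 cell line, and nothing in the labels says whether the 2 control samples came from separate cultures. The design text of the series names another mark, H3K27me1, whereas the sample titles and the antibody label give H3K27ac.

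One control table holds 5186 regions and is called the sparse table, and the other holds 15149 and is called the dense table. The identifiers of the dense table name sgNT. Those of the sparse table name only the cell line, and it was placed among the controls because no guide against SETD8 is named there. It was not resolved which table came from which of the 2 control samples. Each region has a signal, which is the authors' density per bp multiplied by its width. Neither the scaling of that density nor the read depth is known, so signals were ranked within a table. Their sizes were not compared between tables, and only their order was. No correction for copy number was made here. With 1 table of each kind there is no replicate spread, and no p-value is given. Intervals on shares are exact Clopper-Pearson 95% intervals that reflect counting alone and take each region as independent.

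H3K27ac marks active enhancers and promoters, and a cluster of neighbouring acetylated peaks is often joined ("stitched") into 1 region. Long joined regions with much signal tend to lie at genes that define a cell's identity. In t(8;21) leukaemia the fusion protein binds DNA through the RUNX1 domain, together with ETS factors such as ERG and FLI1, with LYL1, LMO2 and the E-protein TCF12, and with the co-repressors that its RUNX1T1 portion recruits. The cells are blocked at the myeloblast stage and carry the stem cell antigen CD34 and the receptor KIT.

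The labelled cell type was set against 12 myeloid and progenitor markers. Of these, 6 had a sparse region and 9 had a dense one, beside 14.9% and 33.1% of all protein-coding genes. KIT had 8 sparse and 4 dense regions, and CD34 had 3 and 17. RUNX1 had 4 and 28. These dense counts depend on joining. Of the 28 RUNX1 regions 23 were left unjoined, and 7 remained when nearby regions were merged. The 17 dense CD34 regions held 17 peaks, whereas the 4 of KIT held 34. SPI1, which encodes the myeloid factor PU.1, had no sparse region and 1 dense region, ranked 250 by signal. CD33, ELANE and ANPEP had no region in either table. A missing region does not show that a gene was silent, because narrow promoter peaks were hardly covered by these tables. Only 1.93% of sparse and 5.83% of dense regions were centred within 2500 bp of the annotated transcription start site (TSS).

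The sparse region of signal rank 10 and the dense region of rank 233 span the genes of 2 microRNAs on the X chromosome, miR-221 and miR-222, which are known to repress KIT. Their mature 3p forms are shown because they sit wholly inside a region of both tables, at chrX:45746180-45746202 and chrX:45747036-45747056 on the minus strand of GRCh38. They share the seed GCUACAU, printed in capitals (bases 2 to 8).
hsa-miR-221-3p: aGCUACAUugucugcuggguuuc
hsa-miR-222-3p: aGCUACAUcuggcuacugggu

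The sparse region of rank 3 lies over the start of the host gene of the miR-23a cluster on chromosome 19, deposited as LOC284454 and now named MIR23AHG. The cluster encodes 3 microRNAs and is known to act in the choice between myeloid and lymphoid development. Its microRNAs lie inside the dense region of rank 663, but 2.57 to 2.88 kb from the sparse region, which is why they are shown beside the pair above. Their 3 seeds differ from each other and from that of the pair above.
hsa-miR-23a-3p: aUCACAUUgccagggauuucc
hsa-miR-27a-3p: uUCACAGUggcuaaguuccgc
hsa-miR-24-3p: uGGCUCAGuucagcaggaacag

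Start sites inside regions of both tables were few. Of 27195 RefSeq start sites (GRCh38.p14), 1957 (7.20%) lay in a dense region, 81 (0.298%) in a sparse region and 60 (0.221%) in both. Among these 60 promoters, 5 are printed, each from 250 bases before the start site, which is base 251, onwards over 300 bases. The first 3 by summed rank are LOC124903967, a start site inside MYO18A, and ENEMAL and LINC02736, which both lie in the MALAT1 region. The fourth, LOC124906008 in the SPTBN1 region, held none of the motifs searched and is not printed. MIR222HG and MIR23AHG, at places 5 and 10, were added after their values were seen, as hosts of the microRNAs above. Their windows are chr17:29140224-29140523 (plus strand), chr11:65477438-65477737, chr11:65488037-65488336, chrX:45770218-45770517 and chr19:13842869-13843168 (minus strand). Capitals mark the motif letters found on either strand.
LOC124903967: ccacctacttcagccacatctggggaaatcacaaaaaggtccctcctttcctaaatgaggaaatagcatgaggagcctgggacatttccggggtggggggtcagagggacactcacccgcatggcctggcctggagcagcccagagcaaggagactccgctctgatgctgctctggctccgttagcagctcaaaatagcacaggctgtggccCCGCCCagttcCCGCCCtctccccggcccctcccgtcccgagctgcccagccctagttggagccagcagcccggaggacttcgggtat
ENEMAL: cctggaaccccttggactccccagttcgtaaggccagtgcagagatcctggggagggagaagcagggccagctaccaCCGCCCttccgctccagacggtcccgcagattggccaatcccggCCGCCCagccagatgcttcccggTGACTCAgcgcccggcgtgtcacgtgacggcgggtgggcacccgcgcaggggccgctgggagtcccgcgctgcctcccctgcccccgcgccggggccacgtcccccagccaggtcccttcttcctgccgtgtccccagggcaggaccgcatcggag
LINC02736: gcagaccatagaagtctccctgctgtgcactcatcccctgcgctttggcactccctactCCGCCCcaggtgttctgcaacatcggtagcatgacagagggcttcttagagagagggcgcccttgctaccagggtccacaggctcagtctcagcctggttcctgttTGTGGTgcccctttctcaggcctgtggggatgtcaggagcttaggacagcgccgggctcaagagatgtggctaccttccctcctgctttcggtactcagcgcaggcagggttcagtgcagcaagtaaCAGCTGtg
MIR222HG: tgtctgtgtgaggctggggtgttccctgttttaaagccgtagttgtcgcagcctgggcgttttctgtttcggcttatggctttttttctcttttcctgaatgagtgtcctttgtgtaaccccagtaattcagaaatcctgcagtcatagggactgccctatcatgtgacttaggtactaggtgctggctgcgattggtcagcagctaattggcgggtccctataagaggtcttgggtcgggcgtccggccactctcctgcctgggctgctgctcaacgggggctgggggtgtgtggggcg
MIR23AHG: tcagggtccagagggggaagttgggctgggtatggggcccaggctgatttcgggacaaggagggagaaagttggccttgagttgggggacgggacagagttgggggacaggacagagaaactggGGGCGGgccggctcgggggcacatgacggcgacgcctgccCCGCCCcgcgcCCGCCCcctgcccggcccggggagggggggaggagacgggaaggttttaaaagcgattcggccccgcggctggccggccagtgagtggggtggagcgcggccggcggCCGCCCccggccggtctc

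Both strands were searched. The RUNX motif was read as the letters TGTGGT. For ETS factors the letters were CCGGAAG. The AP-1 motif was read as TGANTCA, where N is any base. For GATA factors the letters were AGATAA. The E-box was read as the palindrome CAGCTG. For the GC box the letters were GGGCGG. None of these motifs lies inside another. ENEMAL held 1 AP-1 motif and 2 GC boxes, and LINC02736 held 1 RUNX motif, 1 E-box and 1 GC box. LOC124903967 held 2 GC boxes and MIR23AHG held 4, whereas MIR222HG held none of the 6 motifs. Over the 60 promoters in both tables, AP-1 letters were found in 26.7% (16.1 to 39.7), against 7.73% of all promoters. For the 81 promoters in sparse regions, which include the 60, the AP-1 share was 23.5% (14.8 to 34.2). For the 1957 promoters in dense regions it was 7.36%. RUNX letters were found in 21.7% of the 60 (12.1 to 34.2) and 13.1% of all. The intervals of the RUNX, GATA, E-box, ETS and GC box shares in the 60 all included the share in all promoters. CpG content differed as well, with a median of 8.50 CpG in the 60 promoters, 24.0 in dense-region promoters and 14.0 in all. A match describes letters and is not a measured binding site.

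The 2 tables differ in grain. Sparse regions covered 7.75 Mb, or 0.256% of the span up to the last gene of each chromosome, and dense regions covered 133 Mb, or 4.38%. Median width was 512 bp in the sparse table (quartiles 352 and 842, maximum 37594) and 1515 bp in the dense table (quartiles 561 and 9602, maximum 320053). Single-peak regions made up 87.0% of the sparse and 57.9% of the dense table. No sparse region joined 10 or more peaks, with a maximum of 7, whereas 716 dense regions did, with a maximum of 79. Signal followed width across regions in both tables (Spearman's rho of 0.88 sparse and 0.96 dense, a description across regions). It followed density only in the sparse table (0.64, against -0.022).

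TRIO, which encodes a guanine nucleotide exchange factor for small GTPases, ranked first in the dense table with a signal of 433219 over 162 kb and 28 joined peaks (chr5:14143867-14305702). It was followed by GNAQ (420946), the alpha subunit of a heterotrimeric G protein, and JARID2 (415063), an accessory subunit of the Polycomb repressive complex. FNDC3B (373566), a membrane protein with fibronectin domains, came next. KIT, the stem cell factor receptor, ranked 5 at 357064. These 5 regions were annotated as intronic.

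The KIT region was shorter and denser than its neighbours in the ranking. It spanned 70.2 kb (chr4:54653503-54723699) with 18 peaks, whereas the other 9 of the top 10 spanned 160 to 320 kb. Its density was 5.087 per bp, against 1.161 to 2.677 in those 9 and a median of 0.756 over all dense regions. Only ANXA2R, a 2.63 kb single peak with a density of 6.790, had a higher density in the whole dense table. KIT was the only region among both the 10 highest by signal and the 10 highest by density. When the signals of all regions of a gene were summed, KIT ranked first of all genes. High density was not limited to the KIT gene body. The intergenic dense KIT regions downstream had densities of 2.336, 2.060 and 2.405. CHIC2, also on chromosome 4 (chr4:54050138-54067422), had 3.983, place 9 by density.

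The rest of the dense top 10 were RREB1 (347275), a zinc finger factor of RAS signalling, and a region named MIR3922 (340694). The latter lies almost entirely (99.8%) inside CHST11, a chondroitin sulfotransferase gene, and takes its name from the nearest start site. ZMIZ1 (317223), a transcriptional co-activator of the PIAS family, CCNY (300106), which encodes cyclin Y, and GALNT18 (270193), a glycosyltransferase of mucin-type O-glycosylation, completed it. All 10 overlapped at least 1 sparse region, beside 22.1% of all dense regions. The cover was thin, at 0.134% of the GALNT18 region, 2.81% of the KIT region and at most 14.9%, in TRIO.

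**Figure D1:**
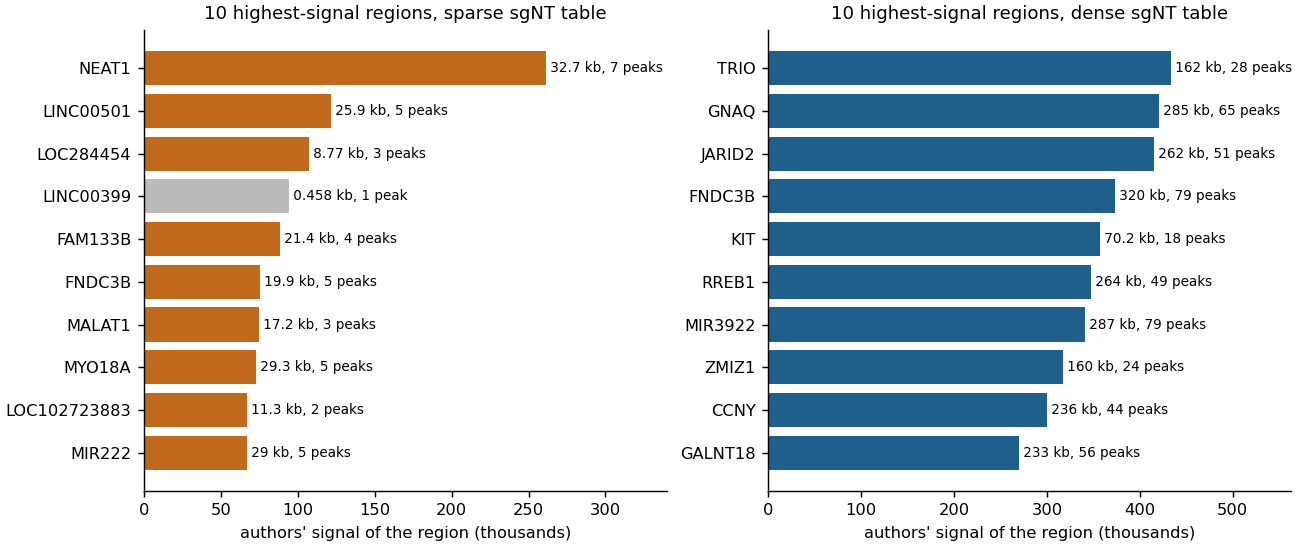
Signal of the 10 highest-signal regions of the sparse table (left) and the dense table (right), in units of 1000 of the authors' signal, with width and joined peaks beside each bar. The axes are not comparable between panels, each bar is 1 region with no replicate, and the grey bar (LINC00399) marks the 1 region of the 20 that overlaps no region of the other table.

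The sparse top 10 were mostly named for noncoding genes, and a name gives the nearest start site. The LINC00501 and LOC102723883 regions were intergenic and centred 52.3 and 162 kb from the start sites that name them. NEAT1, the long noncoding RNA around which paraspeckles form, ranked first with a signal of 261554 over 32.7 kb and 7 peaks (chr11:65403821-65436554). Its signal exceeded that of the second region, LINC00501 (121875, 25.9 kb, chr3:177333791-177359695), more than any other step in the top 10. MIR23AHG followed at 107564 over 8.77 kb, a density of 12.3. MALAT1 (75098), a long noncoding RNA of nuclear speckles, had rank 7 and lies next to NEAT1 on chromosome 11.

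Among the others, FAM133B (88400) was named from the nearest start site, but its region lies wholly inside CDK6, the cyclin D partner kinase. The FNDC3B region (75587) lay upstream of that gene. MYO18A (72526), an unconventional myosin gene, LOC102723883 (67016) and MIR222 (66822) closed the list. LINC00399, at rank 4, was unlike these. It was a single peak of 458 bp with a signal of 94217 and a density of 206, and the nearest dense region lay 202 kb away.

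The 2 next densest sparse regions were also single short peaks with no dense counterpart. PCBD2 had a density of 92.3 over 497 bp, and PROS1 had 44.1 over 597 bp, was annotated as satellite repeat and lay 4359 kb from the nearest dense region. The median sparse density was 1.49. The regions of places 4 to 10 by density reached 15.8 to 30.4 and included AHR (22.4), a ligand-activated transcription factor gene, and a KIT region (18.1) 162 kb downstream of its start site. No repeat was annotated at the centre of the LINC00399 and PCBD2 peaks.

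Ranking by width brought other genes in. In the dense table FNDC3B was widest at 320 kb (chr3:172012625-172332677), then MIR3922 in CHST11 at 287 kb and GNAQ at 285 kb. SMYD3 (278 kb), a lysine methyltransferase gene, and FOXP1 (274 kb), a forkhead factor gene, came next, although they ranked 21 and 37 by signal with densities of 0.699 and 0.565. RREB1 (264 kb), JARID2 (262 kb), a region named MIR4466 (251 kb), RPTOR (244 kb) and CCNY (236 kb) followed. The MIR4466 region lies inside ARID1B, a subunit of the SWI/SNF remodeller, and RPTOR encodes a subunit of the growth-controlling kinase complex mTORC1.

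By joined peaks, FNDC3B and MIR3922 held 79 each. BCL2, the apoptosis inhibitor, followed with 67 in 232 kb, and GNAQ, SMYD3 and CDK6 held 65 each. MIR4466 had 62, RPTOR 61, FOXP1 57 and GALNT18 56. GNAQ, FNDC3B and MIR3922 were in the top 10 by signal, width and peaks alike. Counting any of the 3 rankings gave 16 dense regions, and all 16 overlapped a sparse region.

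**Figure D2:**
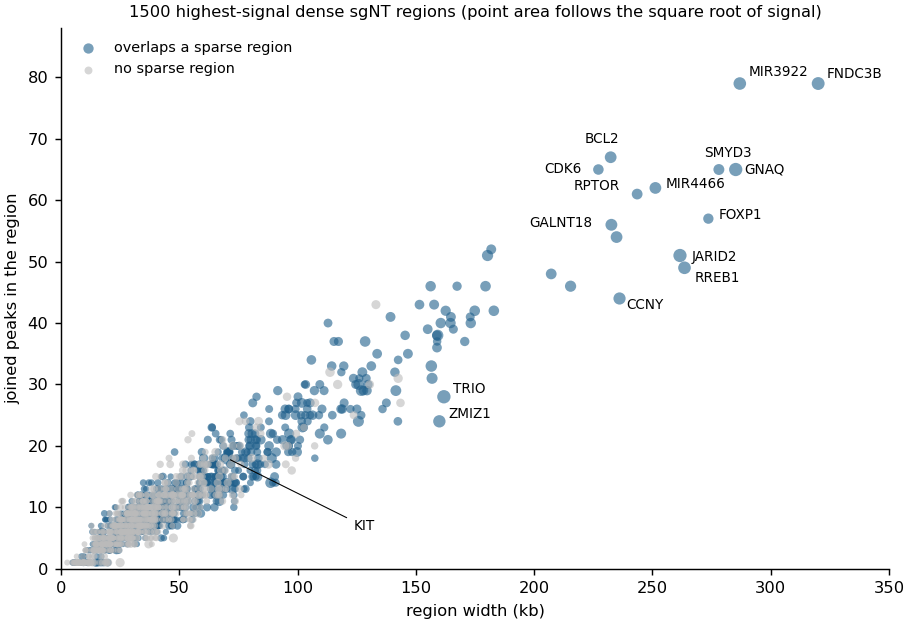
Width in kb against the number of joined peaks for the 1500 dense regions of highest signal, with point area following the square root of signal and blue for regions that overlap a sparse one. FNDC3B and MIR3922 sit at the upper right with 79 peaks each, and KIT, of signal rank 5, sits far to the left at 70.2 kb and 18 peaks.

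In the sparse table the widest region, at 37.6 kb, was named for RNU2-1, the gene of the spliceosomal U2 RNA (chr17:43296838-43334431). Dense regions covered 4.05% of it, the best of them ranked 6901. OLIG1 (34.3 kb), a gene of the oligodendrocyte lineage, was second, with a density of 0.257 and a signal rank of 317. MBP (26.6 kb), the myelin basic protein gene, was the eighth widest and ranked 100 by signal.

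The other wide sparse regions were NEAT1, MYO18A, MIR222 (29.0 kb), ASB9P1 (28.9 kb), CMTM7 (27.5 kb), LINC00501 and ZCCHC7 (24.0 kb). By joined peaks NEAT1 led with 7, and the 9 others of the top 10 had 5. Those 9 included NCK2, the gene of an adaptor of receptor tyrosine kinases, and PMAIP1, which encodes the pro-apoptotic protein NOXA. NEAT1, LINC00501, MYO18A and MIR222 were in the top 10 by all 3 rankings. Of 19 sparse regions in any of the 3 rankings, 18 overlapped a dense region, LINC00399 being the exception, beside 71.2% of all sparse regions.

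Signal was concentrated in few regions. The 10 highest held 7.74% of the sparse signal and 3.63% of the dense signal. A common way to set strong enhancers apart takes the regions beyond slope 1 on the ranked signal, with both axes scaled to 1. There lay 157 sparse regions (3.03%) with 33.9% of the signal, and 709 dense regions (4.68%) with 45.3%. These are counts made here and not calls of the authors. Regions annotated as intronic made up 56.1% of the sparse table (54.7 to 57.4) and 68.3% of the dense table (67.6 to 69.1). Among the 100 highest-signal regions, the intronic count was 53 in the sparse table and 96 in the dense table.

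Recurrence was counted as an overlap of at least 1 bp. Over all regions, 71.2% of the sparse table (3691 regions, 69.9 to 72.4) overlapped a dense region, and 22.1% of the dense table (3353 regions, 21.5 to 22.8) overlapped a sparse one. When 50% of a region had to be covered, the dense share was 5.71% (865 regions). Of the 100 highest-signal regions, 96 sparse (90.1% to 98.9%) and 95 dense ones (88.7% to 98.4%) recurred. Of the 100 widest, 96 sparse and 91 dense ones did. A wider region meets another more easily, and dense regions that recurred had a median width of 7585 bp against 1047 bp for the rest. By density, 96 of the 100 highest sparse regions and 47 of the 100 highest dense regions recurred. Their median widths were 1238 bp and 4508 bp, so these too were wider than the tables' medians.

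Recurrence fell down the ranking by signal in both tables. From the highest to the lowest of 10 equal classes by signal it went from 97.1% to 32.8% in the sparse table and from 57.2% to 3.83% in the dense table. By sparse density it went from 52.6% in the lowest of 4 equal classes to 91.4% in the highest. By dense density it was 21.7%, 16.7%, 19.7% and 30.4% from the lowest to the highest class, with no steady rise. Sparse regions that recurred held 90.7% of the sparse signal, and dense regions that recurred held 54.7% of the dense signal. Of the recurring sparse regions 76.3% lay wholly inside a dense one.

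**Figure D3:**
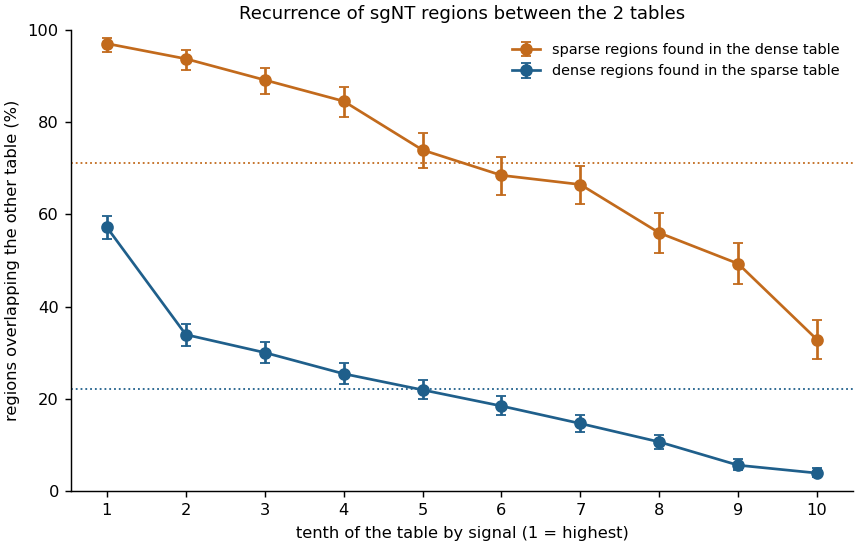
Share of regions that overlap the other table (percent) in 10 equal classes of a table ordered by signal, with exact 95% intervals as bars and the share over the whole table as a dotted line. The sparse table runs from 97.1% to 32.8% and the dense table from 57.2% to 3.83%, with no class above the one before it.

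Overlapping regions mostly carried the same gene name (91.8% of 3786 pairs). By the sum of within-table rank fractions, the best pair was the sparse FAM133B region with the dense CDK6 region, at ranks 5 and 31, so that both lie in CDK6. GNAQ came next, with ranks 15 and 2. TBL1XR1, which encodes a subunit of a co-repressor complex, ranked 16 in both tables. CELF2, an RNA-binding protein gene, ranked 18 and 22. NCK2 (32 and 18), LINC00501 (2 and 124), FOXN3 (30 and 48), a forkhead repressor gene, and NEAT1 (1 and 147) followed.

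The last 2 of the 10 best pairs showed again how names can differ where positions do not. A sparse region named LOC101928855 (rank 46) lay inside the RPTOR region (rank 23). A sparse region named PRPF40B (rank 22) lay inside that of FMNL3 (rank 103), a formin gene. Both sparse regions lay in the host gene that names the dense region, as did the FAM133B region in CDK6. In the remaining pairs both names matched. Across overlapping regions the 2 tables ordered signal only loosely, with Spearman's rho of 0.34 between dense signal and summed sparse signal over 3353 dense regions and 0.18 between densities over 3786 pairs.

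Some dense regions held several sparse peaks. The most were 8, in the 235 kb region of ETV6 (rank 13, chr12:11648102-11882931), the gene of an ETS-family repressor needed in blood stem cells. FNDC3B held 7, and GNAQ, RREB1, BCL2, RPTOR and PRKCA-AS1 held 6 each. TRIO, MIR3922, ZMIZ1, GAB2 and CDK6 held 5 each. In all 307 dense regions held 2 or more.

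The strongest regions found in the dense table alone were those of CHD7 (rank 73, 114 kb), a chromatin remodeller gene, MGAT5 (rank 90, 143 kb), PACSIN2 (rank 91) and RNF220 (rank 95, 24984 bp in 1 unjoined peak). B3GNT2 (rank 98) was the last among the 100 highest. CHD7 had 2 sparse regions at other positions. The nearest sparse region of any name lay 29.2 kb from the CHD7 region and 647 kb from the MGAT5 region. In the sparse table alone, after LINC00399, PCBD2 and PROS1, came ESPNP at rank 72 and MIR586 at rank 193, the latter 1.26 kb from a dense region.

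Across genes, 4001 were named in the sparse table and 8609 in the dense table. Both tables named 3195 of them, which is 79.9% of the sparse and 37.1% of the dense names. For 2649 of the 3195, regions of the 2 tables overlapped. Most genes had 1 region, 79.6% in the sparse and 64.6% in the dense table. In the sparse table KIT and BCL2 had the most, 8 each, followed by FNDC3B, FOXN3, ETV6 and ANO6 with 7 each.

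At KIT the sparse table had more regions than the dense table, 8 against 4, but over 11.7 kb against 124 kb. The 70.2 kb dense region of 18 joined peaks overlapped 2 sparse regions, which covered 2.81% of it. The 8 sparse regions were 0.359 to 6.04 kb wide and ran from upstream of the gene to 183 kb downstream of its start site. The highest in signal was the intergenic peak 162 kb downstream (27419, density 18.1, chr4:54818742-54820256), and the second an intronic one 30.3 kb in (17549, density 14.3, chr4:54687609-54688834). All but 1 of the 8 overlapped a dense KIT region, the upstream one being the exception. The 4 dense regions had signals of 357064, 61024, 48813 and 10479, so the order differed. The gene body ranked highest in the dense table, and the distal peak in the sparse table.

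In the dense table the genes with the most regions were MIR7852 (46), TMEM14EP (39), MIR4266 (36), MLLT10 (34) and JMJD1C (33). Most of these were regions left unjoined. All 46 MIR7852 regions, 36 of 39 TMEM14EP regions, 33 of 36 MIR4266 regions, 31 of 34 MLLT10 regions and 29 of 33 JMJD1C regions were single peaks whose identifiers record no joining. The dense table had 2040 such peaks (13.5%), and the sparse table had 0. When dense regions within 12.5 kb of each other were merged, these 2040 fell into 144 runs, and the 46 MIR7852 regions became 1.

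Merging changed the ranking of a few well-known loci. It sums the signals of a run, so a better rank than that of the best single peak follows from the construction. Of the 10 highest dense regions 9 were kept, and the new one, at rank 10, was a run of 55 peaks over 214 kb at PVT1, the long noncoding RNA gene beside MYC (chr8:127789148-128002659). Its best single peak had ranked 595. A run of 36 peaks over 196 kb in RUNX1 (chr21:34857940-35053817) ranked 15 after merging, where the best single RUNX1 region had ranked 573. A run of 30 in IGF2BP2, an RNA-binding protein gene, ranked 19.

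Other runs also ranked better than their best single peak, by the same construction. The run in VAV3, an exchange factor gene that hosts MIR7852, held 52 peaks, the best at rank 696, and ranked 30 when merged. The run at TET3, a DNA demethylase gene, held 46, the best at 1074, and ranked 48. The run in MBNL1, the host of TMEM14EP, held 57, the best at 674, and ranked 58. The run over MYB and AHI1 held 38, the best at 706, and ranked 92. The JMJD1C run held 69, the best at 891, and ranked 51. VAV3 and JMJD1C also have regions outside these runs, the best of them at ranks 139 and 79 as deposited. Of the 100 highest regions after merging, 14 were such runs.

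**Figure D4:**
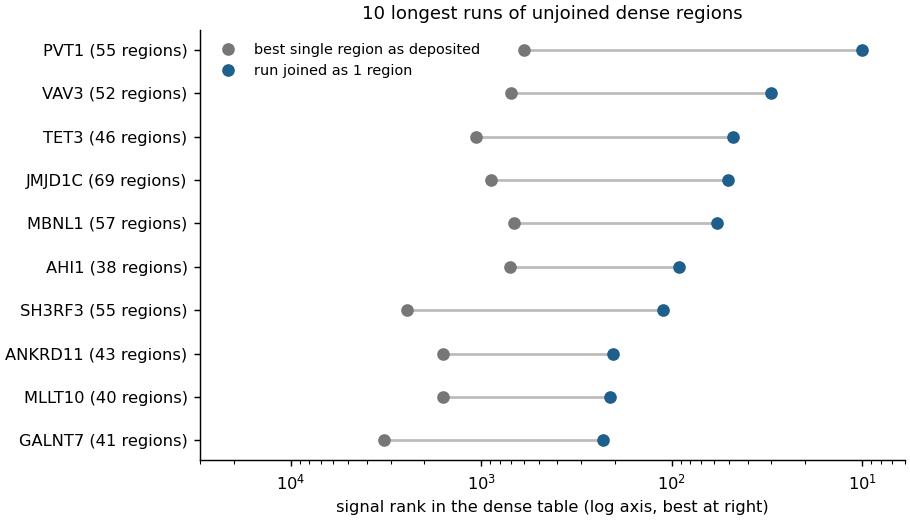
Signal rank in the dense table (log axis, best at right) of the best single region within a run as deposited (grey) and of the whole run merged as 1 region (blue), for the 10 longest runs of unjoined regions. Each run moves to a better rank, PVT1 from 595 to 10 and VAV3 from 696 to 30, which follows from summing the signals of its peaks.

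Several long genes lay almost wholly under dense regions. Of 3351 protein-coding genes of 100 kb or more, 216 were covered over more than 50% of their length, against a median of 0.344%. GFOD1, RREB1, FOXO3, SUSD6, BCL2 and LRRC8D were covered completely. FOXO3 encodes a forkhead factor of stress response and LRRC8D a subunit of an anion channel. ETV6 was covered over 94.9%, CHST11 over 93.9%, JARID2 over 93.0%, CDK6 over 91.2% and GNAQ over 91.0%. TRIO, first by signal, was covered over 49.6% of its 367 kb. Sparse regions covered less of each of these 12 genes, from 0.326% of SUSD6 and 0.750% of FOXO3 to 14.6% of RREB1 and 17.0% of CDK6.

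Gene lists were counted against all 19974 protein-coding genes on the same chromosomes, of which 14.9% had a sparse region, 33.1% a dense region and 12.1% both. The lists were chosen with earlier results of these data known, so their shares are descriptions only. Longer genes are named more often. Among coding genes of 100 kb or more, 26.1% had a sparse and 48.9% a dense region. Of 24 factors and targets of the t(8;21) programme, 17 had a sparse region, 22 a dense one and 16 both. Their median gene length was 35.7 kb, against 24.2 kb for all coding genes.

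Within that list ERG, an ETS factor, held the sparse region of rank 50 (density 13.4, in an intron 21.9 kb from a start site) and the dense region of rank 46 (chr21:38408203-38507954). KIT held ranks 44 and 5. UBASH3B, a phosphatase gene, held ranks 95 and 20, and TCF12 held ranks 408 and 88. Further members with regions in both tables were GFI1 (627 and 196), a transcriptional repressor gene, ELF1 (224 and 156), an ETS factor gene, and LMO2 (674 and 296), the gene of a bridging protein. RUNX1T1, the other partner of the fusion, and MYC had dense regions only, with best ranks of 3327 and 3402. POU4F1 had none in either table.

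Of 22 stem and progenitor genes, 11 (50.0%) had a sparse and 15 (68.2%) a dense region, beside 14.9% and 33.1% of all coding genes. BCL2 (358 and 12), CDK6 (184 and 31), BCL11A (1017 and 39) and IKZF1 (423 and 41) had the best dense ranks, the last 2 being zinc finger factors of blood development. GATA2, a factor of blood stem cells, held the sparse region of rank 43 (density 15.6, chr3:128482530-128484288, intronic). HOXA9, HOXA10, MEIS1, MECOM, ZEB2 and BCL11B were among those with none in either table. The median gene length of the list was 103 kb.

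Genes of mature myeloid function were marked about as often as coding genes in general. Of 25 granule and surface genes 5 had a sparse and 8 a dense region (32.0%, beside the 33.1% above). MPO, the myeloperoxidase gene, held ranks 706 and 2688. CSF1R and CSF2RB, both receptor genes, had dense regions of ranks 2927 and 8424. PRTN3, AZU1, CTSG, LYZ, S100A8 and S100A9 were among the 16 with none. The median gene length of this list was 10.7 kb.

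Signalling and chromatin genes were marked often. Of 26 genes of RAS and small GTPase signalling 22 had a dense and 14 a sparse region, led by TRIO (1 in the dense table), ARHGEF3 (32), RHOH (67) and VAV3 (139). Of 30 chromatin regulators 27 had a dense and 16 a sparse region, with JARID2 (3) and CHD7 (73) among the best ranked. Their median gene lengths were 146 and 124 kb. The dense counts stand beside the 48.9% of long genes as well as the 33.1% of all coding genes. The sparse counts stand beside 26.1% and 14.9%.

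AP-1 and immediate-early genes are short, with a median of 4.71 kb. Of 24, 11 (45.8%) had a sparse and 13 (54.2%) a dense region, beside 14.9% and 33.1% of all coding genes. IER2 ranked 108 in the sparse table and ZFP36, which destabilises inflammatory mRNAs, ranked 68. ZFP36L1 and ZFP36L2 had dense regions of ranks 336 and 252. FOS and JUN had dense regions only, ranked 3083 and 2851.

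Markers of other cell types had regions at various shares. No erythroid or megakaryocyte gene of 17 had a sparse region and 3 (17.6%) had a dense one, and GATA1 had none. Of 12 B cell genes 2 (16.7%) had a sparse and 4 (33.3%) a dense region, PAX5 with 7 dense ones of 17.1 kb together. Of 22 genes listed here as non-haematopoietic, 3 (13.6%) had a sparse and 4 (18.2%) a dense region. PECAM1, which blood cells also express, was in both counts. The B cell shares in both tables and the non-haematopoietic sparse share were close to the 14.9% and 33.1% of all coding genes. Median gene length was 7.11 kb in the erythroid and megakaryocyte list, against 24.2 kb for all coding genes. It was 16.5 kb in the B cell list and 17.4 kb in the non-haematopoietic list.

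The T and NK cell list stood apart between the tables. Of 16 genes 10 (62.5%) had a dense region, CD3D, CD2, CD4 and IL7R among them, and 1 had a sparse region. The best dense rank of the 10 was 1680, at CD4. The 1 sparse region named for a gene of the list, CD5 (chr11:61071295-61071587), overlapped no dense region of that gene. It ended just short of a dense CD5 region (chr11:61071608-61072610). Of 18 housekeeping genes 3 (16.7%) had a sparse and 8 (44.4%) a dense region. Of all coding genes 14.9% and 33.1% did. Median gene length was 23.3 kb in the T and NK cell list and 7.65 kb in the housekeeping list.

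**Figure D5:**
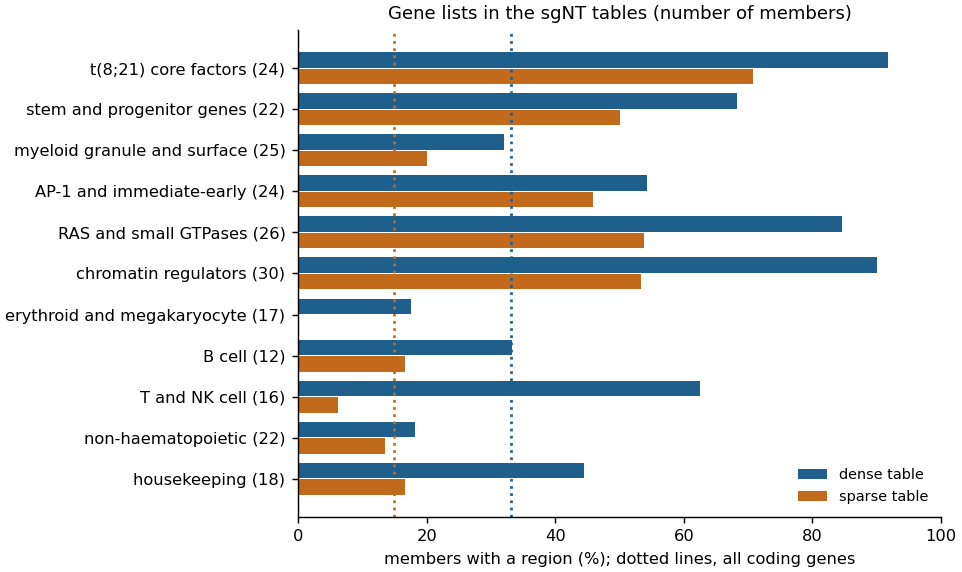
Share of the members of each list (number of members in brackets) that have a region in the dense table (blue) or the sparse table (orange), in percent, with dotted lines for all coding genes at 33.1% and 14.9%. The t(8;21) core list reaches 91.7% and 70.8%, the erythroid and megakaryocyte list 17.6% and 0%, and the T and NK cell list 62.5% and 6.25%.

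In the dense table the median density ran from 0.655 on X to 0.844 on chromosome 8, and in the sparse table from 1.275 on chromosome 2 to 1.745 on chromosome 19. Recurrence of sparse regions was lowest on chromosome 19 at 49.0% and highest on chromosome 8 at 80.0%, around the 71.2% of all. Recurrence of dense regions ran from 18.3% on chromosome 2 to 32.0% on chromosome 21. Among windows of 5 Mb with at least 20 regions, the dense window with the highest median density was 125 to 130 Mb on chromosome 8 (1.423, 87 regions). It holds the PVT1 run of 55 unjoined peaks. Chromosome 5 windows came next, at 40 to 45 Mb (1.250) and 30 to 35 Mb (1.235). The window between them, 35 to 40 Mb (1.075), had place 6. Unjoined dense regions had a median density of 1.07, against 0.756 over all dense regions. The part of joining in the order of the windows was not tested.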

How the data were processed

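The 2 control tables list regions with coordinates, an identifier, a gene annotation and 1 value per region. The authors deposited it as a signal, and it equals a density with 4 decimals times the width in bp. The submitters' processing notes name cutadapt, Bowtie2 and the build hg38, without versions. For the peak calling, stitching and annotation, tools are not given in these sources. Read depth is unknown. No value column was left without a group (0).

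Regions on chromosomes 1 to 22 and X were ranked by signal within a table, and overlaps of at least 1 bp were counted. The overlap and merging code was tested on simulated data against bedtools 2.31.1. Intervals are exact Clopper-Pearson. Host genes, gene lengths and sequences come from RefSeq (GRCh38.p14), and all 236 list members matched. Named genes are those of the 10 highest, widest and most-peak regions of each table, the 10 best overlapping pairs, the 5 genes with the most regions and up to 4 per list. A few genes chosen this way are left unreported. Other genes were named after their values were seen. The members and lists were chosen with earlier results of these data known. Alternatives changed the overlap rule, width minimum, ranking, merging and gene distance. Tables were handled with pandas 2.3.3 and numpy 2.4.6 in Python 3.11.15, intervals came from scipy 1.17.1, and figures from matplotlib 3.10.9.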

Additional observations from a re-analysis of the deposited data

How the results depend on the processing

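Of 35 alternatives to 15 results, 20 moved the value by less than its counting interval, or a count by less than 1.5 times, and 15 moved it further. The cause was not tested unless the alternative's own construction shows it. Asking for 50% cover gave 67.5% recurrence of sparse and 5.71% of dense regions, since a short sparse peak cannot cover a long region. Keeping 50% of each table by rank gave 74.6% and 23.1%, 3195 genes in both tables became 1601, and the intronic dense share became 73.4%. Regions of at least 500 bp gave 81.4% and 16.9%, and merging gave 24.1% for dense regions. By density, 47.0% of the 100 highest dense regions recurred. With 20 regions in place of 100, the share was 100% for the dense regions of highest signal and for the widest regions of both tables. Counted by width, regions annotated as intronic made up 81.1% of the bases of the dense table, including any part of them outside introns. Genes with a region in at least 1 table numbered 9415, and 4001 to 8609 when 1 table was left out. The list counts by distance or kept share by rank, and the recurrence without the 3 densest sparse peaks, were added after seeing the data. No paired analysis was possible because 1 group is described and no test was run.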
